A study of Mus musculus with 13 samples.

Results

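The genes described here decide whether a cell passes from G1 into S phase: the D cyclins Ccnd1, Ccnd2 and Ccnd3, the CDK inhibitors Cdkn1a, Cdkn1b, Cdkn1c, Cdkn2a and Cdkn2b, and the tumor suppressor Trp53 with its ubiquitin ligase Mdm2. They were chosen by name for this role, with earlier results of these data known, and are 10 genes of the 40787 in the deposited table. Their RNA was measured by RNA-seq in 13 libraries of mouse sciatic nerve. RaptorKO mice (Rptor flox/flox with a tamoxifen-inducible Cre) lack Raptor, an essential subunit of mTORC1, in the cells that had expressed the inducible Cre. Controls were Rptor flox/flox mice without Cre. Mice of both genotypes were on a C57BL/6 background, received tamoxifen at 2 months of age and had 1 sciatic nerve crushed 2 months later. The nerve distal to the crush and the uncrushed contralateral nerve were taken at 5 days post-crush (dpc), which gave 3 control contralateral, 4 RaptorKO contralateral, 3 control injured and 3 RaptorKO injured libraries. Cre was meant to act in Schwann cells, but RNA came from whole nerve with the epineurium removed, so each value is a mixture of all endoneurial cell types, and fewer cells of a type cannot be told apart from less RNA per cell.

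D cyclins bind CDK4 and CDK6, and the complexes phosphorylate RB, which releases E2F factors to transcribe genes for DNA synthesis. CIP/KIP proteins (p21 from Cdkn1a, p27 from Cdkn1b, p57 from Cdkn1c) restrain cyclin-CDK complexes, and INK4 proteins (p16 from Cdkn2a, p15 from Cdkn2b) block CDK4 and CDK6. Cdkn2a also encodes p19Arf, which holds back Mdm2, the ligase that marks p53 for degradation, while p53 in turn activates Cdkn1a and Mdm2. In an intact adult nerve Schwann cells are quiescent, and after axon loss they dedifferentiate and re-enter the cell cycle.

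Promoters are shown for 4 inhibitor genes that moved in pairs, Cdkn1a and Cdkn1b, which fell after crush, and Cdkn2a and Cdkn2b, which rose. Each is given as the 250 bases before a RefSeq start on GRCm38.p6, read 5′ to 3′ on the gene's own strand. Capitals mark matches, on either strand, to 6 patterns: TTTNGCGC for E2F, TGANTCA for JUN-FOS, CCAAT for NF-Y, TTTGAA for the cell cycle homology region, GTAAACA for FOXO and CATGNNNNNNCATG for p53. The p53 pattern was added after the Cdkn1a sequence had been read.

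Cdkn1a, chr17:29090729-29090978, plus strand: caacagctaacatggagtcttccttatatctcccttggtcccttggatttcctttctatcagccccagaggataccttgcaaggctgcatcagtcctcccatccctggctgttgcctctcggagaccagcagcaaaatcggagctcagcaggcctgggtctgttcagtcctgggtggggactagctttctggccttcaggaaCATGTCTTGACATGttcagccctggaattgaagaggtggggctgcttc
Cdkn1b, chr6:134920151-134920400, plus strand: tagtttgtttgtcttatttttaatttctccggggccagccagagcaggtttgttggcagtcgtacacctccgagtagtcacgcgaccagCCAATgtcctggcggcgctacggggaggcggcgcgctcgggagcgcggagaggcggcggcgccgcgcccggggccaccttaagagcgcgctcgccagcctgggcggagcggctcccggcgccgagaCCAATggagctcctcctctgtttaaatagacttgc
Cdkn2a at the p16 start, chr4:89282193-89282442, minus strand: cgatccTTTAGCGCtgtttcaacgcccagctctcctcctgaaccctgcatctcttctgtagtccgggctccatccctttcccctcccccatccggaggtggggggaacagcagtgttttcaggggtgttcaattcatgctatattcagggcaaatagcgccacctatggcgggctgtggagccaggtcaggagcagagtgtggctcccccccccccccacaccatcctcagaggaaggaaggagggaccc
Cdkn2b, chr4:89311033-89311282, minus strand: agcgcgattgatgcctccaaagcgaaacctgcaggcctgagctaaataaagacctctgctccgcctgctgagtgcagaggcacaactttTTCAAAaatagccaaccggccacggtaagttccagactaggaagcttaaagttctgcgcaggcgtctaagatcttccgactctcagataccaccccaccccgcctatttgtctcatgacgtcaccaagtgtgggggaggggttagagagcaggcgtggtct

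The printed Cdkn1a window held 1 p53 match that began 48 bases before its start, and 0.490% of 32851 windows of this length held one. Cdkn1a has another RefSeq start, downstream, whose window (chr17:29093519-29093768) is not printed and held none of the 6 patterns. The match is therefore near only 1 of the starts of the gene. Cdkn1b held CCAAT at 161 and 35 bases before its start, a pattern present in 33.8% of windows. The p16 window of Cdkn2a held an E2F match at 244 bases (1.13% of windows), and Cdkn2b held TTTGAA on the opposite strand at 161 bases (16.0% of windows). The window at the p19Arf start of Cdkn2a (chr4:89294620-89294869) is not printed and held none of the 6 patterns. FOXO letters, present in 3.17% of windows, and JUN-FOS letters, present in 6.75%, were not in the 4 printed windows. A match describes letters only and gives no evidence of binding.

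The libraries held 8200458 to 13581775 counts. Rptor, the targeted gene, was measured at 43.9 to 52.7 CPM (scaled counts as parts per 1000000) in control contralateral and 22.1 to 28.2 in RaptorKO contralateral nerves, and at 35.2 to 48.8 in control injured and 23.3 to 28.8 in RaptorKO injured nerves. The ranges of the genotypes did not overlap on either side. Control replicate 3 stood apart from the other 11 libraries, on both sides, in Xist and Y-linked genes. The crush contrast in controls and the interaction were therefore also computed without both of its libraries, and each genotype comparison without the library of replicate 3 that it used. The Schwann cell markers Sox10 and S100b were present in every library, Sox10 at 276 to 699.5 CPM and S100b at 153 to 878 CPM. Markers of T cells, skeletal muscle and adipocytes summed to at most 25.1, 26.1 and 286 CPM in any library.

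Crush injury in control nerves was followed by a switch within the set, with Ccnd1 up and the CIP/KIP inhibitors down, which the plot of each gene's level in the 13 libraries shows. In edgeR's quasi-likelihood test, with p adjusted over all 12430 genes tested and a gene called at an adjusted p under 0.05 and a fold change over 1.2, 6 of the 10 genes were called higher and 3 lower. Of all genes tested, 32.4% were called higher and 32.9% lower. The median log2 fold change of the 10 genes was 0.38, against -0.0015 over all genes tested. In RaptorKO nerves the same contrast called 4 of the 10 higher and 3 lower, where 30.5% and 28.5% of the 12515 genes tested were called, and the median was 0.32 against 0.028.

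**Figure D1:**
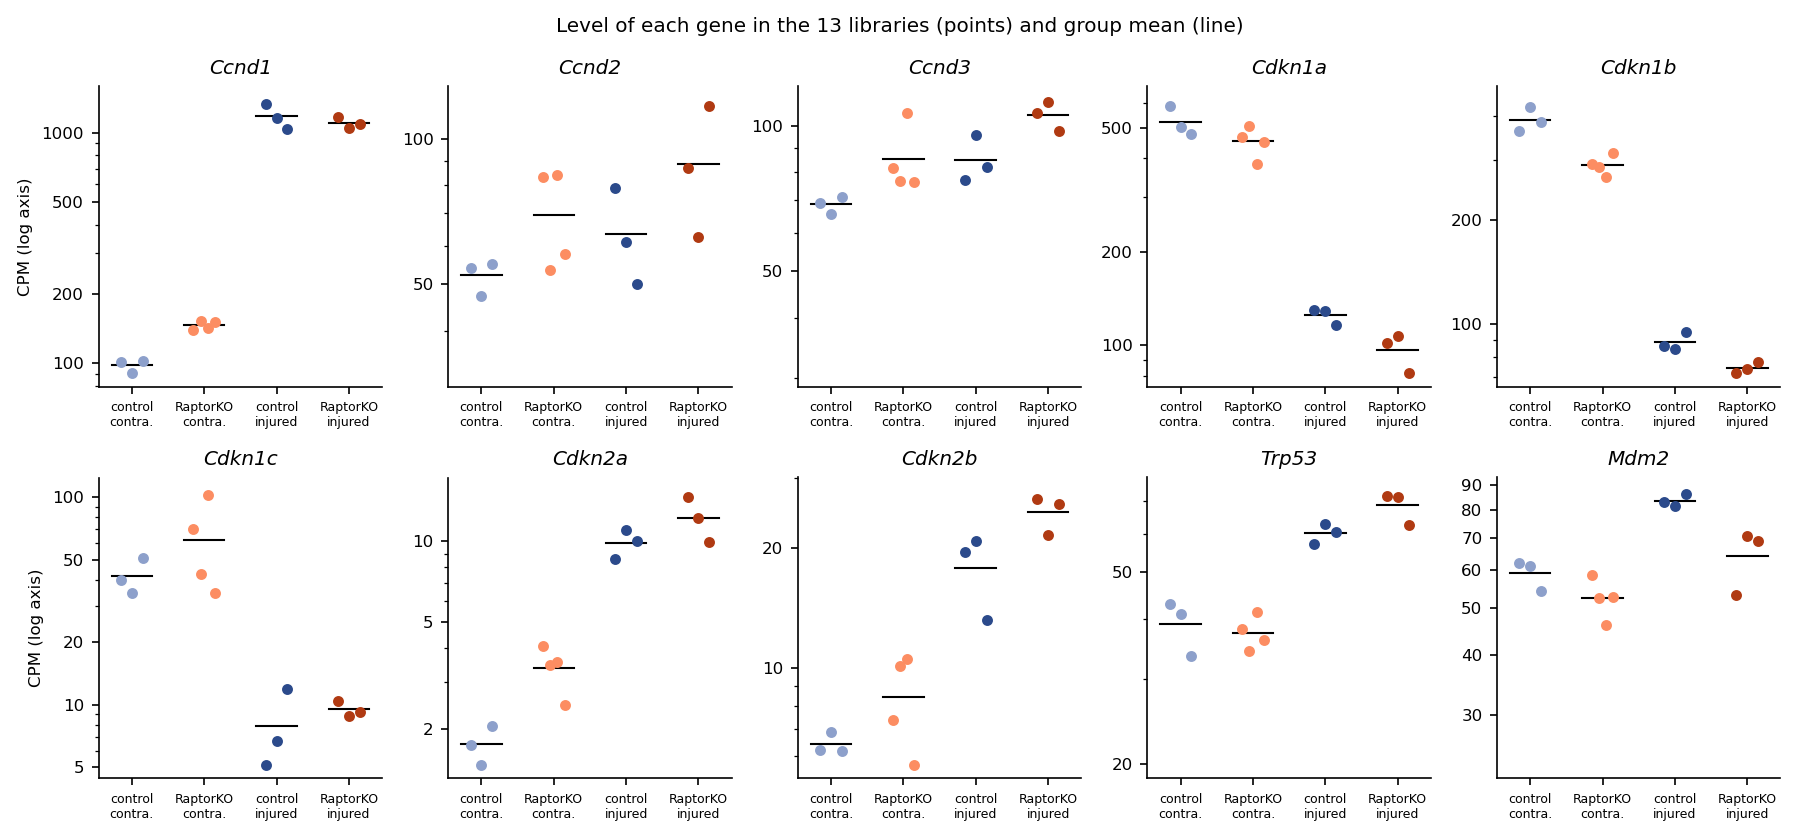
CPM of each of the 10 genes (log axis, its range set for each gene) in the 13 libraries, with a point for each library and a line at the group mean. Ccnd1 lay at 90.6 to 153 in contralateral and 1039 to 1328 in injured nerves, while Cdkn1a and Cdkn1b were lower in every injured library than in every contralateral one.

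Ccnd1 (ENSMUSG00000070348, chromosome 7, 144929931 to 144939925, GRCm38, minus strand), the D cyclin induced by mitogens, stood at 101, 90.6 and 103 CPM in the control contralateral nerves. In the control injured nerves it stood at 1328, 1164 and 1039 CPM. The groups were far apart, and Ccnd1 rose 11.7-fold (log2 fold change 3.55 ± 0.12 SE, adjusted p = 3.72e-10). In RaptorKO nerves it went from 139.8, 153, 142 and 151 CPM to 1173, 1052 and 1091 CPM, a rise of 7.52-fold (2.91 ± 0.090, adjusted p = 4.65e-09). The injured levels of the genotypes overlapped, whereas the contralateral levels did not. The gene shares 1100 exon bases with LTO1 on the opposite strand, and whether strand was used in counting is not given in the sources used here.

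The other D cyclins showed smaller differences. Ccnd2 (chromosome 6, 127125162 to 127152193, minus strand) stood at 53.9, 47.3 and 55.1 CPM in control contralateral nerves and at 79.0, 61.1 and 50 in control injured nerves. These groups overlapped, and the difference was not called (0.26 ± 0.15, adjusted p = 0.139). It was called without the injured library of control replicate 3 or without both control 3 libraries (0.45, adjusted p = 0.0229). In RaptorKO nerves Ccnd2 stood at 83.1, 53.4, 84.0 and 57.7 CPM on the contralateral side and at 86.8, 62.5 and 117 on the injured side (0.35 ± 0.22, adjusted p = 0.200), with wide spread on both sides, and was called without RaptorKO injured replicate 2 (0.55, adjusted p = 0.0453). Ccnd3 (chromosome 17, 47505051 to 47599691, plus strand) rose from 69.2, 65.7 and 71.1 CPM to 77.1, 95.5 and 82.0 CPM in controls, a 1.22-fold change (0.28 ± 0.099, adjusted p = 0.0256). That call was lost without contralateral replicate 1 or 2 or injured replicate 2, where the adjusted p reached 0.101. In RaptorKO nerves Ccnd3 stood at 81.5, 76.8, 106 and 76.3 CPM on the contralateral and 106, 112 and 97.3 CPM on the injured side. The difference missed the threshold (0.30 ± 0.13, adjusted p = 0.0636). It was called without RaptorKO contralateral replicate 3 (0.40, adjusted p = 0.0068), with no count filter (adjusted p = 0.0481) and with all 13 libraries in 1 fit (adjusted p = 0.0331).

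**Figure D2:**
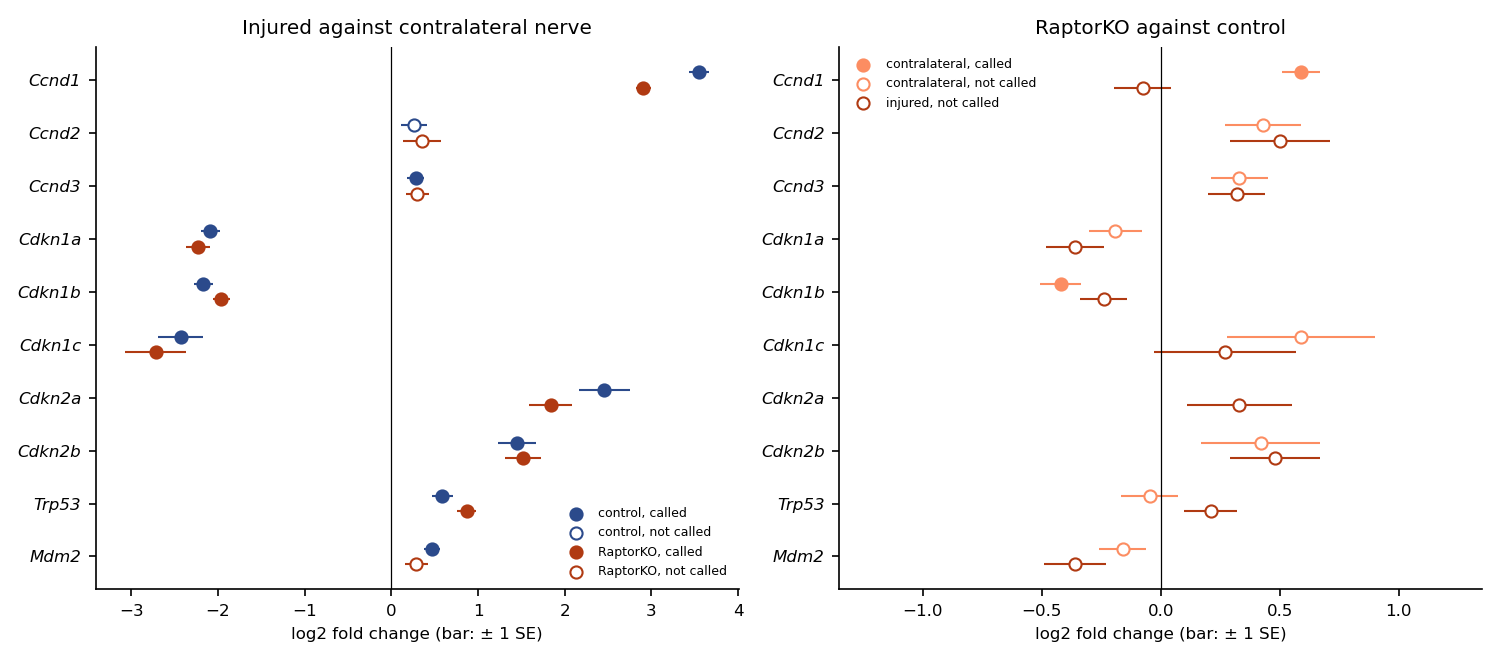
Log2 fold change of the 10 genes with 1 SE on each side, for injured against contralateral nerves (left) and RaptorKO against control nerves (right). Filled points passed the call and open points did not. Ccnd1 reached 3.55 in controls and 2.91 in RaptorKO after crush, and the 2 filled points on the right are Ccnd1 (0.59) and Cdkn1b (-0.42) in contralateral nerves. Cdkn2a has no contralateral point on the right because its counts were below the filter.

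Cdkn1a (ENSMUSG00000023067, chromosome 17, 29090976 to 29100727, plus strand), which encodes p21, stood at 589, 505 and 477 CPM in control contralateral nerves and 130.4, 129 and 116 CPM in control injured nerves. It fell 4.25-fold (-2.09 ± 0.11, adjusted p = 1.38e-08). In RaptorKO nerves it went from 468, 509, 382 and 452 CPM to 102, 107 and 81.3 CPM, a fall of 4.69-fold (-2.23 ± 0.14, adjusted p = 2.79e-07). Each injured library was below each contralateral one in both genotypes. Whether the p53 match in the Cdkn1a window printed above has a part in these values was not tested.

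Cdkn1b (ENSMUSG00000003031, chromosome 6, 134920401 to 134925513, plus strand), which encodes p27, stood at 362, 427 and 385 CPM in control contralateral nerves and 86.1, 84.5 and 95.0 CPM in control injured nerves, a fall of 4.50-fold (-2.17 ± 0.11, adjusted p = 6.50e-09). In RaptorKO nerves the values were 292, 286, 267 and 313 CPM on the contralateral and 71.9, 74.0 and 77.4 CPM on the injured side (3.90-fold lower, adjusted p = 5.39e-08). Cdkn1c (chromosome 7, 143458339 to 143461050, minus strand), the imprinted gene of p57, was the lowest of the 3 in CPM. It stood at 39.9, 34.7 and 51.0 CPM in control contralateral nerves and 5.14, 6.72 and 11.9 CPM in control injured nerves (5.38-fold lower, adjusted p = 6.33e-06). In RaptorKO contralateral nerves Cdkn1c spread from 34.7 to 102 CPM, and after crush it lay at 10.4, 8.84 and 9.28 CPM (6.59-fold lower, adjusted p = 6.69e-05). All 3 CIP/KIP genes therefore fell in both genotypes, and the interaction test between genotype and crush called none of them (adjusted p = 0.772 for Cdkn1a, 0.590 for Cdkn1b and 0.853 for Cdkn1c).

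The INK4 genes moved the other way. Cdkn2a (ENSMUSG00000044303, chromosome 4, 89274471 to 89294653, minus strand) stood at 1.74, 1.47 and 2.06 CPM in control contralateral nerves, which is 18 to 21 counts a library, and at 8.62, 11.0 and 10 CPM in control injured nerves. It rose 5.52-fold (2.46 ± 0.29, adjusted p = 1.09e-05). In RaptorKO nerves it rose 3.59-fold, from 4.07, 3.45, 3.54 and 2.46 CPM to 14.7, 12.2 and 9.92 CPM (1.84 ± 0.25, adjusted p = 9.10e-05). Counts were summed per gene, so transcripts of p16 and p19Arf, which begin at separate starts, cannot be told apart. Cdkn2b (chromosome 4, 89306299 to 89311039, minus strand), its neighbor, stood at 6.21, 6.88 and 6.17 CPM in control contralateral nerves and 19.5, 20.8 and 13.2 CPM in control injured nerves (2.72-fold higher, adjusted p = 9.51e-05). The RaptorKO values were 7.39, 10.1, 10.5 and 5.69 CPM on the contralateral and 26.5, 21.5 and 25.8 CPM on the injured side (2.88-fold higher, adjusted p = 1.16e-04). Both genes of the locus rose in both genotypes from a low level.

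Trp53 (ENSMUSG00000059552, chromosome 11, 69580359 to 69591873, plus strand) stood at 42.8, 40.8 and 33.5 CPM in control contralateral nerves and 57.1, 62.7 and 60.4 CPM in control injured nerves. It rose 1.51-fold (0.59 ± 0.12, adjusted p = 7.85e-04). In RaptorKO nerves it rose 1.83-fold, from 38.0, 34.3, 41.2 and 36.2 CPM to 71.9, 71.4 and 62.6 CPM (adjusted p = 5.01e-05). Mdm2 (ENSMUSG00000020184, chromosome 10, 117688875 to 117710758, minus strand) rose 1.38-fold in controls, from 62.1, 61.3 and 54.4 CPM to 83.0, 81.5 and 86.2 CPM (0.47 ± 0.092, adjusted p = 7.53e-04). In RaptorKO nerves Mdm2 went from 58.6, 52.5, 46.3 and 52.8 CPM to 53.2, 70.5 and 69.1 CPM, a difference that was not called (0.29 ± 0.13, adjusted p = 0.0774). One injured RaptorKO library, replicate 1, lay within the contralateral range, and Mdm2 was called without it, with a log2 fold change of 0.40, and with all 13 libraries in 1 fit (adjusted p = 0.0340). The Mdm2 response itself was not shown to differ between genotypes (interaction -0.20 ± 0.16, adjusted p = 0.654).

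Cell type markers moved with the crush as well, in a contrast that called 32.4% of all genes tested higher and 32.9% lower. In controls Sox10 fell from 620.0 to 699.5 CPM to 402 to 491 CPM (adjusted p = 4.42e-04) and S100b from 798 to 878 CPM to 386 to 428 CPM (adjusted p = 1.66e-06). Of the 8 Schwann cell markers reported here 5 were called lower and 1 higher, Ngfr, the nerve growth factor receptor of dedifferentiated Schwann cells (5.30), while Erbb3 (0.039) and Cdh19 (0.11) were not called. All 10 macrophage markers were called higher, with a summed level of 190.0 to 214 CPM on the contralateral and 2827 to 3548 CPM on the injured side. Of 6 neutrophil markers, 2 could be tested and both were called higher, and 4 were at 0 in every control contralateral library. All 12 proliferation genes were called higher, led by the mitotic genes Cdk1 (0 to 4 counts in contralateral and 904 to 997 in injured libraries), Ccnb1 (1 to 3 and 701 to 732 counts) and Bub1 (0 to 2 and 323 to 446 counts). Of 7 pericyte and smooth muscle markers 6 were called lower (summed 915 to 992 CPM in contralateral and 495 to 610.5 in injured nerves), as were 4 of 7 endothelial markers (439 to 482 and 245 to 374 CPM). Of 8 fibroblast and perineurial markers 5 were lower and 1 higher (6895 to 7502 and 5464 to 7702 CPM). The part of these changes in cell makeup in the values above was not tested.

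Levels were compared between genes as CPM per kb of exon. In control contralateral nerves the order was Cdkn1a (147), Cdkn1b (86.0), Ccnd1 (20.9), Cdkn1c (20.5), Mdm2 (11.7), Trp53 (9.66), Ccnd3 (7.82), Ccnd2 (5.54), Cdkn2b (4.62) and Cdkn2a (1.5), and of the neighbors in it Ccnd1 and Cdkn1c overlapped over libraries. In control injured nerves Ccnd1 stood first at 250, ahead of Cdkn1a at 35.3 and Cdkn1b at 19.5, while Cdkn1c at 3.88 was last. There the neighbors from Trp53 down to Cdkn1c overlapped each in turn. RaptorKO nerves had Cdkn1a, Cdkn1b and Ccnd1 first on the contralateral side, at 127, 63.6 and 31.1, and Ccnd1 and Cdkn1a first on the injured side, at 235 and 27.2. The order depends on the length used. Per kb of the principal transcript Ccnd3, at 32.5, lay above Ccnd1 at 26.3 and above Cdkn1c in control contralateral nerves, and at 40.3 against 39.2 for Ccnd1 in RaptorKO contralateral nerves.

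**Figure D3:**
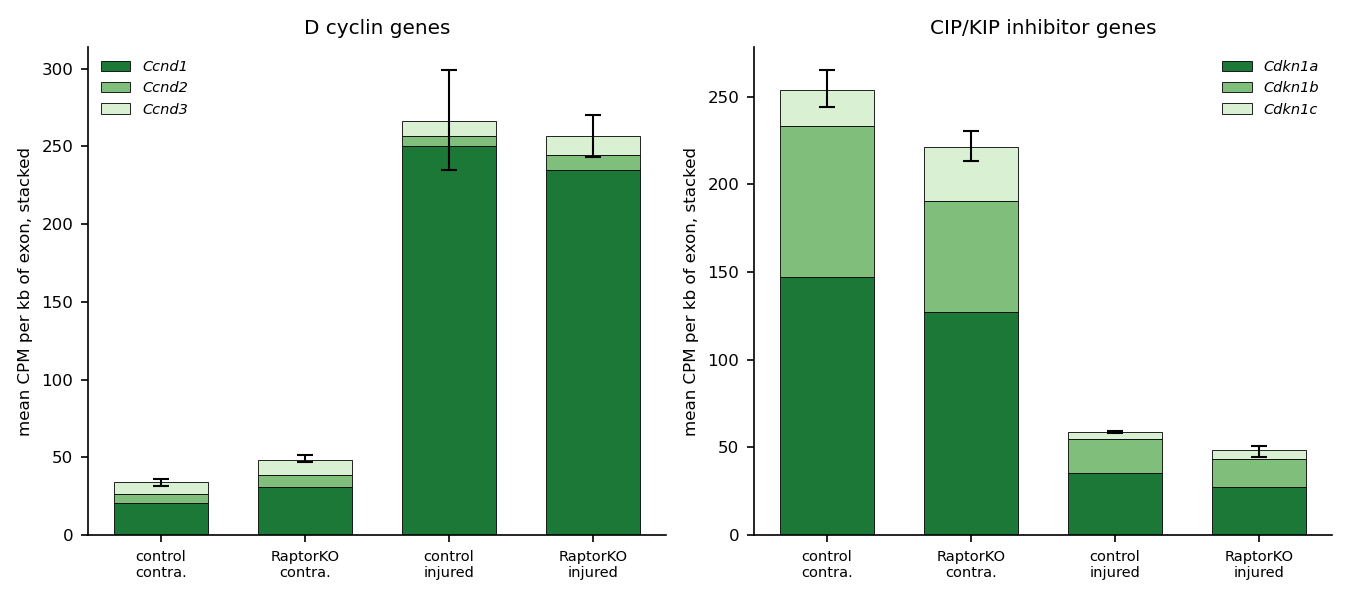
Mean CPM per kb of exon of the D cyclin genes (left) and of the CIP/KIP inhibitor genes (right), stacked by gene, in the 4 groups. The black bar spans the lowest to the highest library of the summed level. The D cyclin sum was 34.3 in control contralateral and 266 in control injured nerves, and the CIP/KIP sum was 254 and 58.6.

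The summed D cyclin level was 34.3 ± 2.21 CPM per kb (SD, n = 3) in control contralateral, 48.2 ± 2.06 (n = 4) in RaptorKO contralateral, 266 ± 32.1 (n = 3) in control injured and 256 ± 13.9 (n = 3) in RaptorKO injured nerves. Ccnd1 made up 61.0% of it in control contralateral and 93.8% in control injured nerves, and 64.7% and 91.6% in RaptorKO nerves. Its share was higher in each injured library than in each contralateral one. With 3 against 3 libraries an exact two-sided permutation test cannot give less than 0.1, and with 3 against 4 it reached its smallest value of 0.0286 for the RaptorKO shares of all 3 D cyclins. None of the 24 share comparisons passed after adjustment, the lowest adjusted p being 0.229. The contralateral shares depend on the length used: per kb of the principal transcript, Ccnd3 made up 48.5% and Ccnd1 39.3% of the sum in control contralateral nerves, and Ccnd1 86.2% in control injured nerves.

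The summed CIP/KIP level was 254 ± 10.6 CPM per kb in control contralateral and 222 ± 8.25 in RaptorKO contralateral nerves, and 58.6 ± 0.714 and 48.2 ± 3.36 after crush. The total fell in range after crush, and no share within it passed its test. Cdkn1a made up 57.9% and 57.4% of it in control and RaptorKO contralateral nerves, and 60.2% and 56.3% after crush.

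Between genotypes in contralateral nerves, which came from mice whose other sciatic nerve was crushed, 2 of the 9 genes that could be tested were called. Ccnd1 was 1.51-fold higher in RaptorKO than in control nerves (0.59 ± 0.081, adjusted p = 0.00128) and Cdkn1b 1.33-fold lower (-0.42 ± 0.087, adjusted p = 0.0143). Of the 11878 genes tested, 4.49% were called higher and 5.68% lower. The median over the 9 genes was 0.33, against 0.012 over all genes tested. The 4 RaptorKO libraries of Ccnd1, at 139.8 to 153 CPM, lay above the 3 controls at 90.6 to 103, and those of Cdkn1b, at 267 to 313 CPM, lay below the controls at 362 to 427. Ccnd1 was called under all 14 alternatives run, and Cdkn1b under 12. The Cdkn1b call was lost without control contralateral replicate 2, where the adjusted p was 0.0852.

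The other members gave smaller or more variable differences. Ccnd2 (0.43 ± 0.16, adjusted p = 0.122) and Cdkn1c (0.59 ± 0.31, adjusted p = 0.276) each had RaptorKO libraries both within and above the control range. Ccnd3 did not overlap between genotypes, at 76.3 to 106 against 65.7 to 71.1 CPM, and was not called (0.33 ± 0.12, adjusted p = 0.110). RaptorKO contralateral replicate 3 held the highest value of Ccnd2 (84.0), Ccnd3 (106) and Cdkn1c (102). It also held the most counts of the adipocyte marker Adipoq (508, against 39, 0 and 1 in replicates 1, 2 and 4) and of the perineurial marker Cldn1 (2342, against 1407, 649 and 447). The part of such tissue in these values was not tested. Cdkn1a (-0.19 ± 0.11), Cdkn2b (0.42 ± 0.25), Trp53 (-0.05 ± 0.12) and Mdm2 (-0.16 ± 0.10) overlapped and were not called, with adjusted p of 0.328, 0.330, 0.857 and 0.383. Cdkn2a fell below the count filter, with 18 to 21 counts in control and 19 to 45 counts in RaptorKO libraries. Its CPM ranges did not overlap, at 1.47 to 2.06 and 2.46 to 4.07 (exact two-sided permutation p = 0.0571), and without a filter it was not called (0.95, adjusted p = 0.221).

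Some partners of the D cyclins were also higher in these uninjured nerves. Of 18 other genes of the CDK, RB and E2F group, 15 could be tested. Of these, 3 were called higher in RaptorKO contralateral nerves and none lower, where 4.49% and 5.68% of all genes tested were called. The median of the 15 was 0.13, against 0.012 over all genes tested. The 3 called genes were Cdk6 (0.71 ± 0.15, adjusted p = 0.0173) and Cdk4 (0.43 ± 0.097, adjusted p = 0.0203), the kinases D cyclins bind, and Tfdp2 (0.36, adjusted p = 0.0423), a dimer partner of E2F. Cdk4 stood at 41.6 to 51.4 CPM in controls and 58.3 to 65.4 in RaptorKO, and Cdk6 at 16.4 to 20.1 and 25.2 to 37.0. Of 7 regulators of p27, Foxo4, a factor that activates Cdkn1b, was lower (-0.64 ± 0.12, adjusted p = 0.00783), as was Skp1a, a subunit of the ligase that degrades p27 (-0.37, adjusted p = 0.0173), and none was higher. Of 25 p53 target genes, 20 could be tested and only Sesn1, which restrains mTORC1, was called (-0.65 ± 0.087, adjusted p = 0.00117). Mki67, a gene of cycling cells, was 3.07-fold higher, from 3.01 to 5.98 CPM in controls to 12.7 to 18.9 in RaptorKO (adjusted p = 0.00344), and was the 1 called of 4 proliferation genes tested out of 12.

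Markers of other cells differed in the same nerves, where 4.49% of all genes tested were called higher and 5.68% lower. Of 10 macrophage markers, 8 could be tested and 6 were called higher in RaptorKO, with a summed level of 190.0 to 214 CPM in controls and 311 to 399 in RaptorKO, and none at 0 in all libraries of a group. Of 8 fibroblast and perineurial markers 3 were called higher (summed 6895 to 7502 against 9215 to 12478 CPM), and of 7 mast cell markers 2 of the 5 tested (12.3 to 60.2 against 83.3 to 144 CPM). Of the 8 Schwann cell markers reported, 3 were called lower and 1 higher. S100b was among the lower ones, at 369 to 460.2 CPM against 798 to 878 in controls (adjusted p = 1.91e-04), and Sox10 was not called (482 to 589.6 against 620.0 to 699.5 CPM, adjusted p = 0.128). The part of these markers in the Ccnd1, Cdk4, Cdk6 and Mki67 differences was not tested.

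Genotype after crush gave no call among the 10 genes. Of the 12040 genes tested, 4.09% were called higher and 4.44% lower in RaptorKO. At an unadjusted p under 0.05 there were 6 of the 10, where 21.5% of all genes tested passed it, and DESeq2 and edgeR's exact test also called none. The median over the 10 genes was 0.24 against 0.0014 over all genes tested. The smallest difference was that of Ccnd1, whose RaptorKO libraries at 1052 to 1173 CPM lay inside the control range of 1039 to 1328 (-0.08 ± 0.12, adjusted p = 0.794).

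Some of the others did not overlap between the injured groups and yet missed the threshold. With 3 against 3 libraries such a separation has an exact permutation p of 0.1. How many of all genes tested were separated in this way was not counted. Cdkn1a was lower in RaptorKO, at 81.3 to 107 against 116 to 130.4 CPM (-0.36 ± 0.12, adjusted p = 0.105), and reached an adjusted p of 0.0487 without RaptorKO injured replicate 2. Mdm2 lay at 53.2 to 70.5 against 81.5 to 86.2 CPM (-0.36 ± 0.13, adjusted p = 0.109), and Cdkn1b at 71.9 to 77.4 against 84.5 to 95.0 (-0.24 ± 0.10, adjusted p = 0.211). On the other side, Cdkn2b was measured at 21.5 to 26.5 against 13.2 to 20.8 CPM (0.48 ± 0.19, adjusted p = 0.161) and Ccnd3 at 97.3 to 112 against 77.1 to 95.5 (0.32 ± 0.12, adjusted p = 0.121). Ccnd2 (0.50 ± 0.21, adjusted p = 0.192), Cdkn1c (0.27 ± 0.30, 0.686), Cdkn2a (0.33 ± 0.22, 0.439) and Trp53 (0.21 ± 0.11, 0.315) overlapped. Ccnd2 was called without RaptorKO injured replicate 2, at an adjusted p of 0.0241.

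The interaction test asked whether the genotype difference itself differed between injured and contralateral nerves. Of the 12851 genes tested, 1.41% were called lower and 1.07% higher. Among the 10 genes Ccnd1 was called, with a value of -0.66 ± 0.14 (adjusted p = 0.0221), which is the smaller rise in RaptorKO from a higher contralateral level. It was not called without control contralateral replicate 2 (-0.61, adjusted p = 0.0723). Without both control 3 libraries Ccnd1 kept the call. The other 9 genes lay between -0.64 ± 0.35 for Cdkn2a (adjusted p = 0.460) and 0.26 ± 0.16 for Trp53 (adjusted p = 0.531), and none was called.

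The pathways around the 10 genes changed on crush in both directions. In the CDK, RB and E2F group 13 of 18 genes were called higher and 2 lower in controls, where 32.4% and 32.9% of all genes were called, with a median log2 fold change of 1.6. E2f2 (4.87), E2f1 (4.65) and Ccne1 (4.33), which act after the D cyclins, led the rise, while Tfdp2 (-0.51) and the pocket protein gene Rbl2 (-0.43) were lower. E2f1 went from 1.31 to 4.84 CPM to 80.5 to 89.5 CPM. In RaptorKO nerves 14 were higher and 1 lower, beside 30.5% and 28.5% of all genes, with E2f1 at 72.7 to 98.1 CPM after crush. Between the injured groups Cdkn2c, the INK4 gene of p18, was the 1 called gene of the 18, at 50.6 to 55.2 CPM in controls and 23.5 to 33.8 in RaptorKO (-0.91 ± 0.15, adjusted p = 0.00393). Of all genes tested between these groups, 4.44% were called lower and 4.09% higher.

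Of 7 regulators of p27, 4 were called lower and 2 higher after crush in each genotype, where 32.9% and 32.4% of all genes were called in controls and 28.5% and 30.5% in RaptorKO. The FOXO genes fell in controls, Foxo4 by 1.54, Foxo1 by 1.42 and Foxo3 by 1.13 on the log2 scale. Cks1b (3.32) and Skp2 (2.18), which take part in p27 degradation, rose. Skp1a and Cul1, named after their values were seen, encode further subunits of the same ligase, and Skp1a fell (-0.72, adjusted p = 1.08e-05) while Cul1 was not called (-0.14, adjusted p = 0.234). Between the injured groups Cks1b was the 1 called gene, lower in RaptorKO (-0.58, adjusted p = 0.0487), where 4.44% of all genes tested were called lower.

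Among 15 Polycomb and demethylase genes known to act on the Cdkn2a-Cdkn2b locus, 6 were lower and 5 higher after crush in controls, beside 32.9% and 32.4% of all genes tested. The largest falls were of Cbx7 (-3.33), a subunit that holds the locus silent, Ezh1 (-1.70) and Pcgf2 (-0.76). Cbx7 went from 109 to 125 CPM down to 9.72 to 13.1 CPM. Ezh2 (2.84), the methyltransferase of dividing cells, Eed (0.68) and Suz12 (0.59) were higher. In RaptorKO nerves 6 were lower and 3 higher (28.5% and 30.5% of all genes). The 3 higher genes were Ezh2 (2.04), Kdm2b (0.74) and the demethylase gene Kdm6b (0.38, adjusted p = 0.0139). Kdm6b (0.59, adjusted p = 1.04e-04) and Kdm2b (0.47, adjusted p = 0.0128) were called higher in controls as well. None of the 15 was called between genotypes after crush, and Pcgf2 was the 1 called in contralateral nerves (0.39, adjusted p = 0.0343).

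Of the 24 p53 targets tested other than the 10 genes, 14 were called higher and 6 lower after crush in controls, beside 32.4% and 32.9% of all genes, with a median of 0.98. Gadd45a, a stress gene of DNA repair, rose most, from 6.47 to 9.23 CPM to 201 to 249.7 CPM (4.78, adjusted p = 1.29e-10), followed by Pidd1 (3.09) and the death receptor gene Eda2r (2.72). Perp (-3.81), an adhesion gene, Sesn1 (-2.55) and Rrm2b (-1.58) fell with Cdkn1a. In RaptorKO nerves 13 were higher and 6 lower of 23 tested, beside 30.5% and 28.5% of all genes, and Gadd45a reached 70.4 to 131 CPM.

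**Figure D4:**
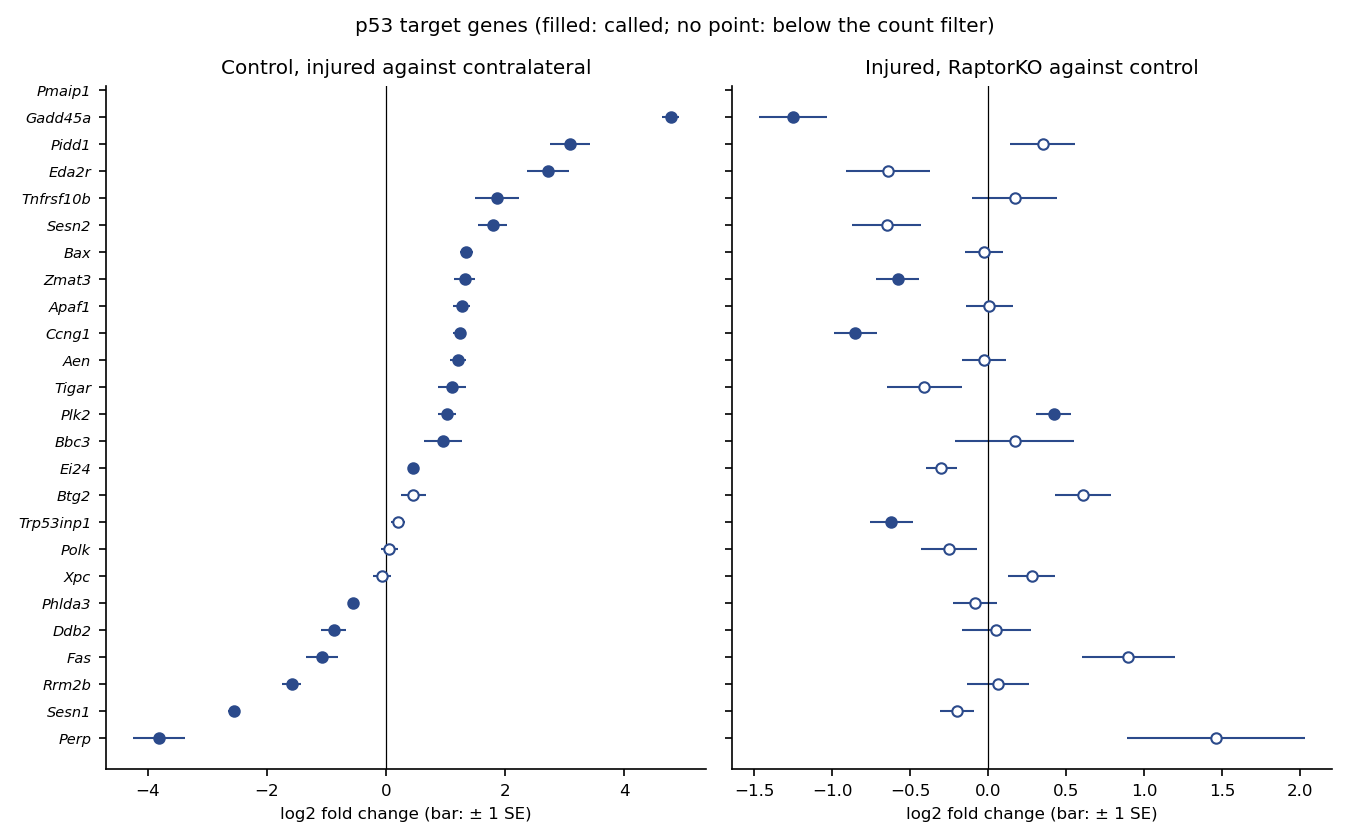
Log2 fold change with 1 SE on each side for the 25 p53 target genes, for control injured against contralateral nerves (left) and for injured RaptorKO against control nerves (right), in the order of the left panel. Filled points passed the call. Gadd45a leads on the left at 4.78 and is the lowest on the right at -1.25, and Pmaip1 has no point because it was below the count filter.

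Between the injured groups 4 p53 targets were lower and 1 higher in RaptorKO, of 24 tested, with a median of -0.026 against 0.0014 over all genes. Of all genes tested, 4.44% were called lower and 4.09% higher. Gadd45a was 2.38-fold lower (-1.25 ± 0.22, adjusted p = 0.00536), Ccng1 1.80-fold (177 to 232 against 93.6 to 133 CPM, adjusted p = 0.00425) and Trp53inp1 1.53-fold (37.0 to 39.7 against 21.4 to 28.9 CPM, adjusted p = 0.0231). The fourth was Zmat3 (-0.58, adjusted p = 0.0300), named after its value was seen. Plk2, a polo-like kinase gene, was higher (0.42, adjusted p = 0.0362). Cdkn1a and Mdm2, the 2 best known targets, lay on the lower side without a call, as given above. Other targets were separated between the injured groups without a call in both directions. Btg2 (0.61, adjusted p = 0.0676) and Fas (0.90) were on the higher side, and Sesn2 (-0.65) and Eda2r (-0.64) on the lower side. These were named after their values were seen. Of the 24 targets tested, 13 lay below 0.

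In the same injured nerves, where 4.44% of all genes tested were called lower and 4.09% higher, 9 of the 12 proliferation genes were lower in RaptorKO. Ccnb1 was at -1.12, Ccna2 at -0.90 and Cdk1 at -0.89, and the summed level was 1189.8 to 1345 CPM against 1950.3 to 2118 in controls. The 3 not called were Mcm2 (0.019), Mcm5 (0.033) and Pcna (-0.13), named after their values were seen. The ranges of Ccnb1, Ccna2 and Cdk1 did not overlap between genotypes, whereas those of Ccnd1, Mcm2 and Mcm5 did. All 7 endothelial markers (452 to 713 against 245 to 374 CPM) and 6 of 7 pericyte and smooth muscle markers (986 to 1346 against 495 to 610.5 CPM) were higher in RaptorKO, as were 3 of 8 fibroblast and perineurial markers (6985 to 10191 against 5464 to 7702 CPM). So were 5 of the 6 mast cell markers tested (109.6 to 202 against 8.75 to 53.2 CPM). No macrophage marker of 10 was called (1924 to 3914 against 2827 to 3548 CPM). Of the 8 Schwann cell markers reported 2 were called lower and none higher. S100b was lower (153 to 242 against 386 to 428 CPM, adjusted p = 0.00280), while Sox10 was not called (276 to 417 against 402 to 491 CPM, adjusted p = 0.301). What these markers add to the values of the 10 genes was not tested.

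For each member called in any comparison, which leaves out Ccnd2, the genes with the most similar pattern over the 13 libraries were found. The measure was the root mean square difference of mean-centered log2 CPM among 12851 genes. For Ccnd1 they were Coro1c (0.182) and Tgfb1 (0.184), where the median gene lay at 1.62. For Cdkn1a they were Cnp (0.129), a gene of myelinating cells, and Aatk (0.130), and for Cdkn1b they were Pik3r1 (0.102) and Enpp5 (0.107). Cdkn1c had its nearest genes farther off, Igfbp6 (0.278) and Wnt6 (0.326). Cdkn2a was closest to Angptl2 (0.231) and Itga5 (0.255), and Cdkn2b to Trmt61a (0.183) and Pdia5 (0.213). Trp53 was closest to Ap5z1 (0.113) and Ap1m1 (0.122), Mdm2 to Tsg101 (0.112) and Eif4e (0.118), and Ccnd3 to Rab11fip5 (0.102) and Sik1 (0.108). The distances were taken over the same 13 libraries, which share the crush contrast.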

How the data were processed

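RNA-seq of whole mouse sciatic nerve was analyzed in 13 libraries. Per the labels and the study's methods, the authors trimmed reads with Trimmomatic, aligned and quantified them with RSEM 1.2.22 on GRCm38, and deposited expected counts per gene, which are 24.93% to 27.95% not whole among values above 0 and were rounded here. RSEM shares reads between similar transcripts, so a count is an estimate. Depth was 8200458 to 13581775 counts a library, so genes under about 50 counts, such as Cdkn2a in contralateral nerves, have coarse values.

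The 10 genes and all gene lists were chosen with earlier results of these data known. Testing required 50 counts or more in 2 of the libraries compared. edgeR 4.0.16 (R 4.3.3) was used with TMM scaling, glmQLFit and glmQLFTest, and p-values were adjusted by Benjamini-Hochberg over all genes tested. A call needs an adjusted p under 0.05 and a fold change over 1.2. Groups followed the labels, each comparison was fitted on its own groups, and the interaction on all 13 libraries. CPM used TMM factors over the 12851 genes with 50 counts in 2 libraries, and CPM per kb the union of GENCODE M21 exons. Shares were compared by exact permutation (scipy 1.17.1), adjusted over 24 tests. Per the study's methods each library of a group came from another mouse, so p-values of the genotype comparisons measure the spread between mice. The contralateral nerves were those of crushed mice, but the main fits treated all libraries as independent. The crush and interaction p-values therefore leave out any pairing of nerves from 1 mouse. Alternatives were DESeq2 1.42.0, RLE factors, no count filter, an adjusted p under 0.01, edgeR's exact test, all 13 libraries in 1 fit, a replicate block and leaving out each library. A further pair was chosen after seeing the data: principal transcript lengths, and leaving out both control 3 libraries. The fits were tested on simulated data. From each list at most the 3 called genes with the largest change in each direction were named. Some Schwann cell markers are not reported here, and Sox10, S100b, Ngfr, Erbb3 and Cdh19 were named after their values were seen.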

Additional observations from a re-analysis of the deposited data

Results flagged for a closer look

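The share of Cdkn1b in the summed CIP/KIP level was 32.3% in RaptorKO contralateral replicate 4, while the other 3 libraries of the group lay between 27.1% and 27.9%, a gap larger than Dixon's 95% limit for 4 samples. Chance flags about 1 in 20 such groups, and 16 groups were examined.

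The genotype difference of several genes differed between injured and contralateral nerves in the interaction test of edgeR's quasi-likelihood fit, and 6 of them are named here by the rule. Ccnd1 had an interaction of -0.66 on the log2 scale, the p53 targets Eda2r and Trp53inp1 had -2.02 and -0.74, and the mitotic genes Cdk1, Bub1 and Ccnb1 had -3.61, -3.36 and -3.04. Eda2r lay at 0.882 to 1.0 CPM in control contralateral, 1.71 to 3.62 in RaptorKO contralateral, 5.90 to 6.72 in control injured and 3.71 to 4.23 in RaptorKO injured nerves, and held 9 to 29 counts in contralateral libraries. Cdk1, Bub1 and Ccnb1 held 0 to 4 counts in control contralateral libraries, so the size of their interactions depends on the prior count of the fit. In all, 6 of the 12 proliferation genes, 2 of the 24 p53 targets tested, 1 of the 10 macrophage markers and 1 of the 8 Schwann cell markers reported had a called interaction below 0, while 2 of 7 endothelial and 3 of 7 pericyte and smooth muscle markers had one above 0. Of all genes tested, 1.41% had one below 0 and 1.07% above.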

How the results depend on the processing

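The rises of Ccnd1, Cdkn2a, Cdkn2b and Trp53 and the falls of Cdkn1a, Cdkn1b and Cdkn1c after crush kept their direction and call under each of the 14 alternatives in both genotypes, as did the contralateral Ccnd1 difference. The count of members called moved elsewhere. For RaptorKO against control after crush, leaving out each library gave 0 to 1 called lower and 0 to 1 higher, and no count filter gave 1 higher (Ccnd2). In contralateral nerves an adjusted p under 0.01 left 0 lower, and leaving out each library gave 0 to 1 lower and 1 to 2 higher. For the interaction an adjusted p under 0.01 left 0, and leaving out each library gave 0 to 1. The study took the contralateral nerves of its crushed mice, but a label's number is not said to mark a mouse. Within a genotype, deviations of same-numbered injured and contralateral libraries correlated at -0.024 to 0.305, control 3 stood apart on both sides in Xist, and the replicate block changed no member's call after crush or in the interaction. Between genotypes a shared number joins different mice (-0.05 to 0.301), and there the block gave 4 members called higher in contralateral nerves, adding Ccnd2 (0.48), Ccnd3 (0.36) and Cdkn1c (0.72). The cause was not tested.

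The values that changed sign were not called in either setting. Leaving out each library moved Ccnd1 after crush, RaptorKO against control, from -0.16 to 0.013 and Trp53 in contralateral nerves from -0.14 to 0.025. In the interaction it moved Ccnd2 from -0.19 to 0.27, Ccnd3 from -0.078 to 0.11, Cdkn1c from -0.55 to 0.099 and Cdkn2b from -0.12 to 0.18. The replicate block gave interactions of -0.0061 for Ccnd2 and -0.060 for Cdkn2b, and leaving out both control 3 libraries gave -0.12 and -0.093.

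Differences in share, in percentage points, changed sign for Cdkn1a in contralateral nerves with no division by length (1.51). Leaving out each library gave -1.94 to 0.180 for Ccnd2 and -2.39 to 2.09 for Cdkn1a in contralateral RaptorKO against control, -1.23 to 1.94 for Cdkn1b in injured RaptorKO against control, -2.71 to 0.812 for Cdkn1b in control crush, and -3.76 to 1.2 for Cdkn1a in RaptorKO crush. For RaptorKO crush it gave 25.1 to 28.5 for Ccnd1, -12.6 to -10.5 for Ccnd2 and -15.9 to -14.2 for Ccnd3, none of which can pass with fewer libraries. Depth limits Cdkn2a, which has under 50 counts in contralateral libraries.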

Other observations

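Regulators of p53 outside the 10 genes were also measured. Of 16, 14 could be tested in controls after crush, 3 were called higher and 5 lower, where 32.4% and 32.9% of all genes were called. Chek1 (3.39, adjusted p = 3.33e-05) and Chek2 (2.30, adjusted p = 2.30e-05), the checkpoint kinases, rose, as did Rpl11 (0.47), a ribosomal protein that binds Mdm2. The acetyltransferase genes Kat5 (-0.60) and Ep300 (-0.54) and the p53-binding Trp53bp1 (-0.60) fell. Rpl11 was the 1 regulator called between genotypes after crush, 1.34-fold higher in RaptorKO (adjusted p = 0.0340), and it was 1.82-fold higher in contralateral RaptorKO nerves (adjusted p = 2.46e-04), where Rpl5 was 1.42-fold higher (adjusted p = 0.0230). Both ribosomal genes have processed copies in the genome, so their estimated counts are uncertain.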
